A study of Rattus norvegicus with 12 samples.

Results

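The offspring of lean rat dams were compared after weaning onto a high-fat, high-sucrose diet (HFS) or onto a low-fat diet (LF), as 6 of the 12 islet RNA-sequencing libraries of the study. Lean-HFS 1 to 3 are the libraries titled as the HFS-weaned offspring of lean dams, and Lean-LF 1 to 3 are their low-fat controls. Both groups are Sprague-Dawley rats born to dams that ate the LF diet (10% fat) for 6 weeks before mating and on through pregnancy and suckling, 6 dams having been assigned to each maternal diet. Litters were reduced to 8 pups. Lean-HFS pups were weaned onto the HFS diet (45% fat) and Lean-LF pups onto the LF diet (10% fat) for 12 weeks, and islets were hand-picked after collagenase digestion at 15 weeks of age. The other 6 libraries come from offspring of dams in which the HFS diet induced gestational diabetes mellitus (GDM), weaned onto HFS or LF diet (GDM-HFS and GDM-LF, 3 libraries each). They enter the fit and are set beside the results where a difference between dams is described. The labels used here give neither litter nor sex, so the error terms measure the spread between these samples, and pups of 1 litter may be among them.

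Pancreatic islets are clusters of endocrine cells in which beta cells make insulin, alpha cells glucagon, delta cells somatostatin and PP cells pancreatic polypeptide. Beta cells sense glucose through its uptake and phosphorylation and release insulin when membrane depolarisation opens calcium channels. Diets rich in fat and sugar raise the demand for insulin, and rodent islets on such diets are known to enlarge and to alter genes of secretion, lipid handling and stress. The islet label was checked against the hormones. The rat has a pair of insulin genes, Ins1 and Ins2, and together they made up 31.1 ± 2.23% of all reads that did not come from ribosomal RNA (rRNA) in Lean-HFS and 29.9 ± 1.02% in Lean-LF (SD, n = 3 each; exact two-sided permutation p = 0.5, where 0.1 is the smallest that 3 against 3 can give). In whole islets, fewer cells of a type and less RNA per cell cannot be told apart.

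The libraries held 13716837 to 17485547 reads over genes in Lean-HFS and 14658004 to 27492858 in Lean-LF, and 1 Lean-LF library stood apart. Reads of rRNA made up 39.0, 31.3 and 24.7% of gene reads in Lean-HFS 1 to 3, against 11.3, 30.4 and 1.84% in Lean-LF 1 to 3 (exact permutation p = 0.2). A length measure compared short with long transcripts: each gene's log2 deviation from its mean was taken, and the median over transcripts longer than 4000 bases was subtracted from that over transcripts shorter than 1000 bases. It was -0.31, -0.10 and -0.18 in Lean-HFS, against -0.72, -0.73 and -0.08 in Lean-LF (exact permutation p = 0.4). Lean-LF 3 therefore was the deepest library, had the least rRNA and had a length measure above those of the HFS libraries, and the list medians that it moves by 0.1 or more on the log2 scale (15 of 40 lists) are given with and without it.

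**Figure D1:**
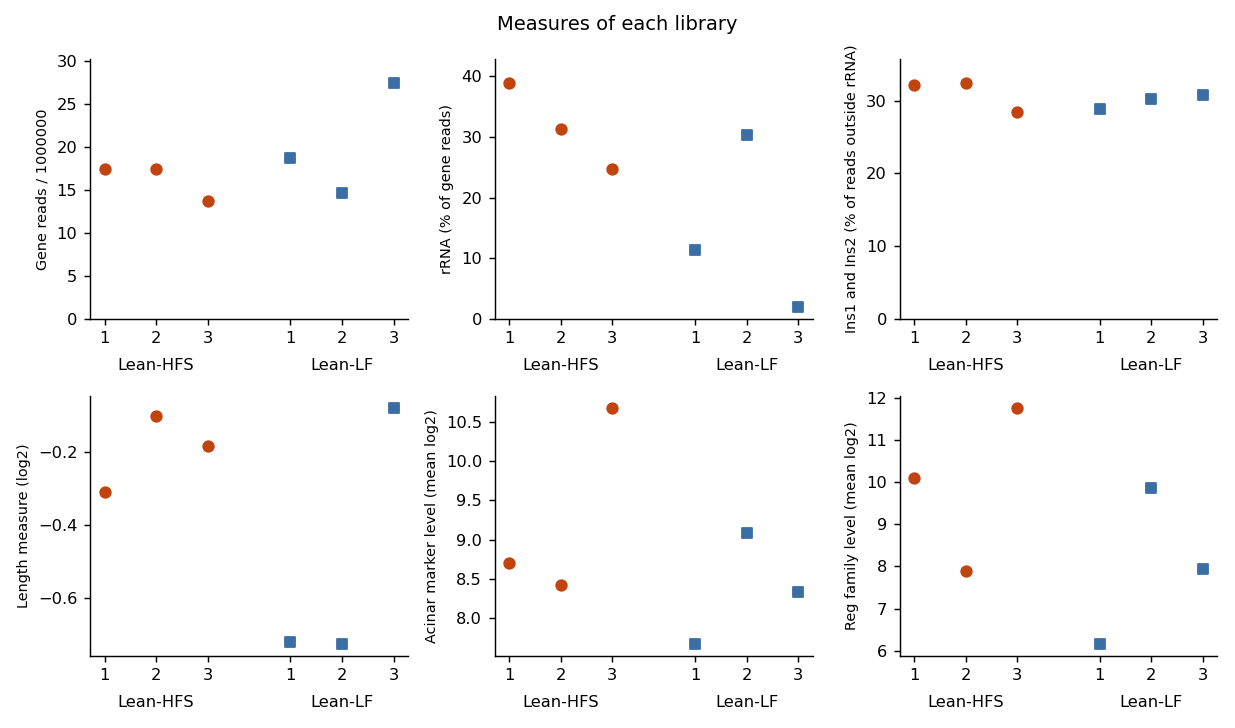
Measures of the 6 libraries, 3 Lean-HFS (circles) left of 3 Lean-LF (squares): gene reads (on a scaled axis), rRNA as a percentage of gene reads, Ins1 and Ins2 as a percentage of reads outside rRNA, the length measure in log2 units, and the mean log2 level of the acinar markers and of the Reg genes. Lean-LF 3 has 1.84% rRNA and a length measure of -0.08, while Lean-LF 1 and 2 are at -0.72 and -0.73, and Lean-HFS 3 has the highest acinar level, 10.68.

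No gene passed the threshold between HFS-weaned and LF-weaned offspring of lean dams. Of 12339 genes tested with limma on log2(scaled value + 1), 0 had a Benjamini-Hochberg adjusted p under 0.05 (0%), and the lowest adjusted p was 1. Scaled values are the deposited values after each library was set to a common scale by its median ratio. At an unadjusted p under 0.05 stood 269 genes (2.18%), 144 with a higher and 125 with a lower mean in Lean-HFS. This is a smaller share than the 0.05 that such a threshold admits on average when no gene differs. All 3 Lean-HFS libraries lay above all 3 Lean-LF libraries for 454 genes (3.68%) and below them for 488 genes (3.95%). Together these 942 genes are a smaller share than the 0.1 that 3 against 3 gives on average when groups do not differ. edgeR's quasi-likelihood test on the recovered reads called 0 genes, with 278 at an unadjusted p under 0.05, and DESeq2 called 1 of 12336 (0.00811%), Fam111a, which rests on 1 library. The precision behind this count was a median SE of 0.27 on the log2 scale. For a median gene the 95% interval reached 0.58 either side, a 1.49-fold difference, and for 8038 genes (65.1%) the interval lay within 2-fold either way. In the deposited values before rescaling the median log2 fold change of all genes was -0.35, and it was 0.00 after it, so each direction is relative to the rescaled median. Of the genes tested, 280 had a log2 fold change beyond 1 in either direction. The values below therefore describe these 6 libraries, with no gene among them past the threshold.

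The differences followed transcript length. Transcripts under 1000 bases (1334 genes) had a median log2 fold change of 0.19, those of 1000 to 4000 bases (9115 genes) 0.01 and those over 4000 bases (1890 genes) -0.14. Among the short transcripts 7.05% had all Lean-HFS libraries above all Lean-LF libraries and 1.72% below, and among the long ones 1.80% above and 7.30% below. In offspring of GDM dams the same classes had medians of 0.16, 0.00 and -0.13. The length measure of the libraries is computed from the same short and long transcripts. It therefore restates these medians and is no separate evidence for them. What sets the trend with length was not tested.

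The gene of lowest p was the protocadherin Pcdhb6. Clustered protocadherins are adhesion proteins through which neurons recognise one another, and the beta cluster consists of single-exon genes each with a promoter of its own. The file places Pcdhb6 at chr18:30123238-30126600 and Pcdhb2 at chr18:30083426-30085822 on the plus strand of build rn5. Pcdhb6 had 2, 0 and 0 reads in Lean-HFS 1 to 3, against 29, 14 and 26 reads in Lean-LF 1 to 3. On the scaled values this was 0.896, 0 and 0 in Lean-HFS and 7.72, 6.09 and 4.32 in Lean-LF, a log2 fold change of -2.48 ± 0.46 (SE; limma adjusted p = 1). Pcdhb2 had 0, 2 and 2 reads in Lean-HFS, against 14, 16 and 29 in Lean-LF, with a 95% interval of the log2 fold change of -3.14 to -0.86. Every HFS library was below every LF library for both, at counts so low that the fold rests on a handful of reads. Of the other 9 entries of the beta cluster tested, Pcdhb12 also did not overlap, at 14.8, 9.55 and 11.8 in Lean-HFS and 18.1, 16.5 and 17.6 in Lean-LF. Over all genes, 3.95% had every HFS library below every LF library. Pcdhb5 had a log2 fold change of -0.69 ± 0.43 with overlapping groups, and the other 7 lay between -0.22 and 0.37. The members resemble one another in sequence, so reads may have been split between them, and the family was looked up after the values of Pcdhb6 and Pcdhb2 were seen.

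The promoters of Pcdhb6 and Pcdhb2 are shown because both genes were near 0 in the same libraries. RefSeq's table for build GRCr8 gives 250 bases before to 50 after each annotated start, 5′ to 3′ on the gene's strand, at chr18:29320141-29320440 for Pcdhb6 and chr18:29279754-29280053 for Pcdhb2. Capitals mark the longest stretch that the 2 windows share.
Pcdhb6: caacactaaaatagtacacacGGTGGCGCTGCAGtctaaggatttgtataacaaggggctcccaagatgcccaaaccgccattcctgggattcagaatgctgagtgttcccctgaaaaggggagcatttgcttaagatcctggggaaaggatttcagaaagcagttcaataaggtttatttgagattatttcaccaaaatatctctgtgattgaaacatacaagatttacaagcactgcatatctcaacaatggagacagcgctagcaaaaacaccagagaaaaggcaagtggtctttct
Pcdhb2: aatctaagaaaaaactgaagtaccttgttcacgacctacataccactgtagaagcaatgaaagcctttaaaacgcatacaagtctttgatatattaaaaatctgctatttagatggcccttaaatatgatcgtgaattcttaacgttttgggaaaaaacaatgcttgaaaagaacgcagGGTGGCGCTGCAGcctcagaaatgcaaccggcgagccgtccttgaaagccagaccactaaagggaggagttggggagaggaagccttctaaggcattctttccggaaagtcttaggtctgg
The shared stretch GGTGGCGCTGCAG begins 229 bases before the annotated start of Pcdhb6 and 71 bases before that of Pcdhb2. Searched on the gene's strand, it occurs in 8 of the 11 beta-cluster promoters. On either strand it occurs in 13 of all 27457 promoters of the table (0.0474%). Besides Pcdhb6 and Pcdhb2 it is held by Pcdhb5, Pcdhb12 and Pcdhb21, with log2 fold changes of -0.69, -0.51 and -0.17, and by Pcdhb4, Pcdhb8 and Pcdhb9, with 0.01, 0.21 and 0.37. Pcdhb3, Pcdhb10 and Pcdhb20 lack it on the gene's strand in these windows.

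The other genes of low p on the lower side have varied roles. Anks1b, a postsynaptic scaffold protein, stood at 50.6, 50.2 and 59.2 in Lean-HFS, against 79.3, 91.8 and 115 in Lean-LF, a log2 fold change of -0.82 ± 0.20. Nrxn3, a presynaptic adhesion protein of the neurexin family, stood at 5.83, 3.98 and 2.28 in Lean-HFS and at 10.4, 12.2 and 9.64 in Lean-LF. Both sets of libraries were separate. Scrt2, a zinc-finger repressor of the neuronal lineage, stood at 0.896, 1.59 and 0.911 in Lean-HFS and at 3.99, 3.91 and 3.99 in Lean-LF. Lingo3, a leucine-rich repeat membrane protein, had a log2 fold change of -0.81 ± 0.26, and Chn2, a GTPase-activating protein for Rac, one of -1.22 ± 0.38. The 12 tested Schwann cell and neuron markers had a median of 0.08 (-0.06 without Lean-LF 3 and -0.15 without Lean-LF 2) with 7 above 0, and a summed level of 603 to 785 in Lean-HFS and of 536 to 816 in Lean-LF. None of the 12 had all HFS libraries above or below all LF libraries.

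Trpm5, a calcium-activated cation channel of taste cells and beta cells that adds to depolarisation at high glucose, was among the 12 genes of lowest p on this side. Its scaled values were 45.3, 45.4 and 33.2 in Lean-HFS, against 61.5, 105 and 70.6 in Lean-LF (log2 fold change -0.90 ± 0.27, limma adjusted p = 1). Adarb1, an enzyme that edits adenosines in RNA, stood at 27.8, 46.2 and 33.7 in Lean-HFS and at 58.3, 63.9 and 67.5 in Lean-LF. Nacc2, a transcriptional repressor with a BTB domain, and Zfyve26, a protein of lysosome reformation, had log2 fold changes of -0.78 ± 0.23 and -0.60 ± 0.18. The groups did not overlap for any of these 4 genes.

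The lower side also holds the microRNA entry Mir1843b, a 61-base hairpin at chr13:81975828-81975889 of rn5. Its mature sequences in RefSeq (GRCr8) are shown with the seed, bases 2 to 8, in capitals.
rno-miR-1843b-5p: aUGGAGGUcucugucugacuuag
rno-miR-1843b-3p: uCUGAUCGuuccccuccauac
The 2 arms do not share a seed. The entry stood at 5.38, 5.17 and 17.8 in Lean-HFS, against 16.0, 24.4 and 131 in Lean-LF, so that Lean-HFS 3 lay above Lean-LF 1. These libraries were made from fragmented long RNA, so the reads over the hairpin are no measure of either mature arm.

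The genes of low p on the higher side include Plekhs1, a protein with a pleckstrin homology domain. Plekhs1 stood at 13.0, 14.7 and 10.5 in Lean-HFS, against 6.66, 4.78 and 2.66 in Lean-LF, a log2 fold change of 1.32 ± 0.36 (limma adjusted p = 1). All HFS libraries were above all LF libraries. Bcl2, which restrains apoptosis, had the opposite order, at 2.69, 1.99 and 2.73 in Lean-HFS and 5.33, 5.22 and 7.31 in Lean-LF. Over the list of apoptosis and p53 targets 17 of 27 tested genes were above 0, with a median of 0.06 (-0.06 without Lean-HFS 3) and 0 passing in either direction. In 1 of the 27 every HFS library was above every LF library and in 1, Bcl2, below (3.68% and 3.95% over all genes). The p53 targets Bax, Bbc3, Cdkn1a and Mdm2 had log2 fold changes of 0.04, -0.28, 0.27 and 0.15.

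Grb14, an adaptor that binds the insulin receptor and dampens its signal, stood at 6.27, 9.15 and 10.9 in Lean-HFS, against 2.13, 3.48 and 1.50 in Lean-LF (log2 fold change 1.55 ± 0.44). Its groups did not overlap. The receptor Insr itself had a log2 fold change of -0.09 ± 0.30, and the receptor substrates Irs1 and Irs2 had -0.41 ± 0.26 and -0.15 ± 0.29. Igf1r, the receptor of insulin-like growth factor 1, had -0.24 ± 0.32. Over the 27 tested genes of insulin and IGF signalling, 4 lay above 0 and 23 below, with a median of -0.15, and 0 passed the test in either direction. The median was -0.27 without Lean-LF 3 and -0.08 without Lean-LF 2. Pik3ca, the catalytic subunit of phosphoinositide 3-kinase, and Igfbp5, a binding protein of the IGFs, had all HFS libraries below all LF libraries (2 of 27, against 3.95% over all genes).

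The other genes of lowest p on the higher side have varied roles. Arg1, arginase of the urea cycle, stood at 178, 504 and 137 in Lean-HFS and at 95.3, 87.4 and 110 in Lean-LF, with Lean-HFS 2 far above the rest. Slc52a3, a riboflavin transporter, had 7, 6 and 10 reads in Lean-HFS and 0 reads in all 3 Lean-LF libraries, at least 3.88-fold higher against a floor of 3 reads in each Lean-LF library. Mbnl3, a splicing regulator, had 8, 6 and 19 reads in Lean-HFS and 0, 2 and 0 in Lean-LF. Acta1, the actin of skeletal muscle, stood at 23.3, 27.9 and 118 in Lean-HFS and at 10.9, 15.2 and 12.1 in Lean-LF. Krt20, an epithelial keratin, and Plet1, a surface protein of epithelial progenitors in the mouse, had log2 fold changes of 2.09 ± 0.68 and 1.34 ± 0.43. Tspan2, a tetraspanin, had 0.92 ± 0.30. Acta1 was highest in Lean-HFS 3, and for each of the 11 genes shown on this side no HFS library lay below an LF library.

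**Figure D2:**
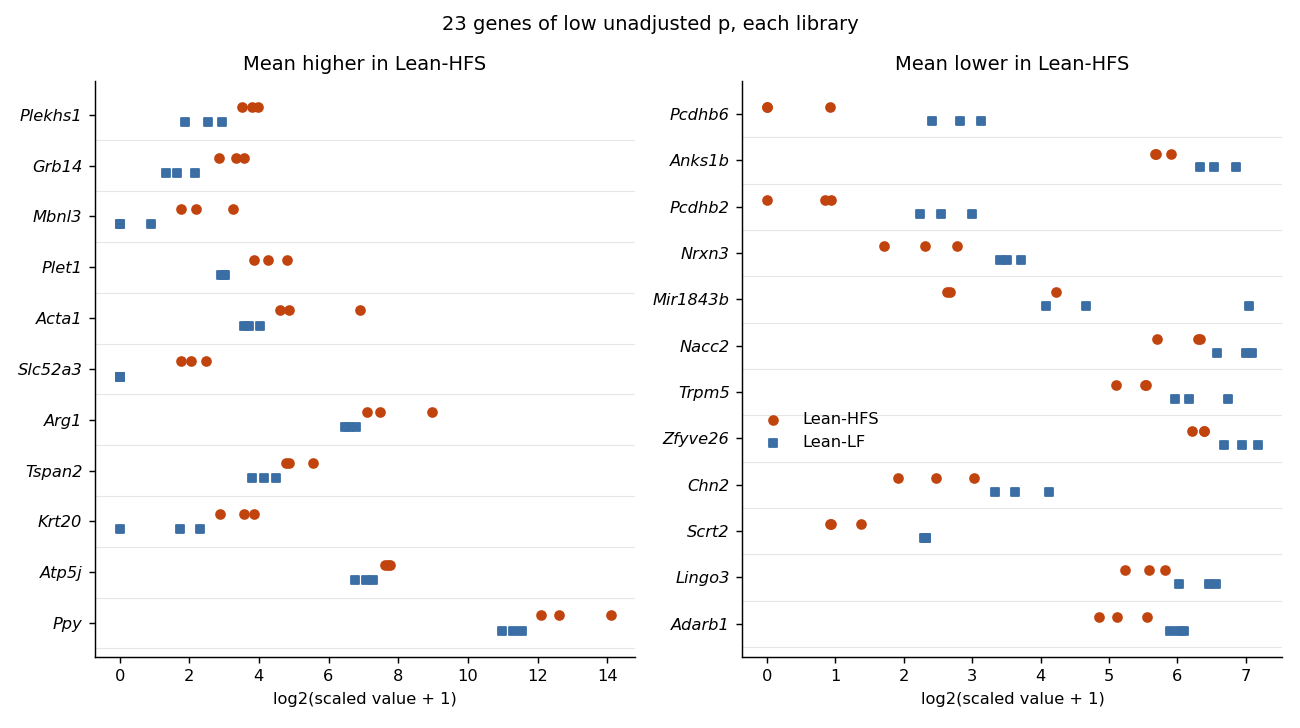
Scaled values on the log2(value + 1) axis in each of the 3 Lean-HFS (circles, upper in each row) and 3 Lean-LF libraries (squares) for 23 genes of low unadjusted p, 11 with a higher and 12 with a lower mean in Lean-HFS, ordered by p from the top. The groups are separate for every gene except Mir1843b, and Pcdhb6, Pcdhb2, Mbnl3 and Slc52a3 lie near 0 in one of the groups.

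Of the hormones of minor islet cells, Ppy, Sst and Pyy lay higher in each of the HFS-weaned libraries, short of the threshold. Insulin, glucagon and ghrelin (Ghrl) overlapped between the diets. Ppy, pancreatic polypeptide of PP cells, stood at 4371, 17528 and 6317 in Lean-HFS, against 2012, 2985 and 2488 in Lean-LF, a log2 fold change of 1.67 ± 0.56 (limma adjusted p = 1). Sst, somatostatin of delta cells, stood at 1244, 3131 and 1321 in Lean-HFS and at 914, 821 and 1052 in Lean-LF (0.90 ± 0.33). Pyy, peptide YY, stood at 1048, 1552 and 1435 in Lean-HFS and at 1041, 915 and 570 in Lean-LF (0.70 ± 0.34). Each of the 3 hormones had every HFS library above every LF library, and for all 3 the highest value belonged to Lean-HFS 2. These 3 were the only ones among the 15 tested hormones and granule peptides to be separated (20.0%), and 0 of 15 passed the test. The share was 3.68% over all genes, 7.05% of transcripts under 1000 bases and 3.58% of those of 1000 to 4000 bases. The list's median length was 1044 bases, and its median of 0.22 was 0.09 with the length trend removed. Pyy was separated only by 1048 in Lean-HFS 1 against 1041 in Lean-LF 1. Gcg, glucagon, stood at 72608, 53854 and 48380 in Lean-HFS and at 56213, 31515 and 67667 in Lean-LF. Ins1 and Ins2 had log2 fold changes of 0.10 and 0.25, or 1.07-fold and 1.19-fold. Their SE in the fit, 2.63 and 1.69, follows a variance trend that widens at the highest levels, and without that trend it was 0.19 and 0.20.

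**Figure D3:**
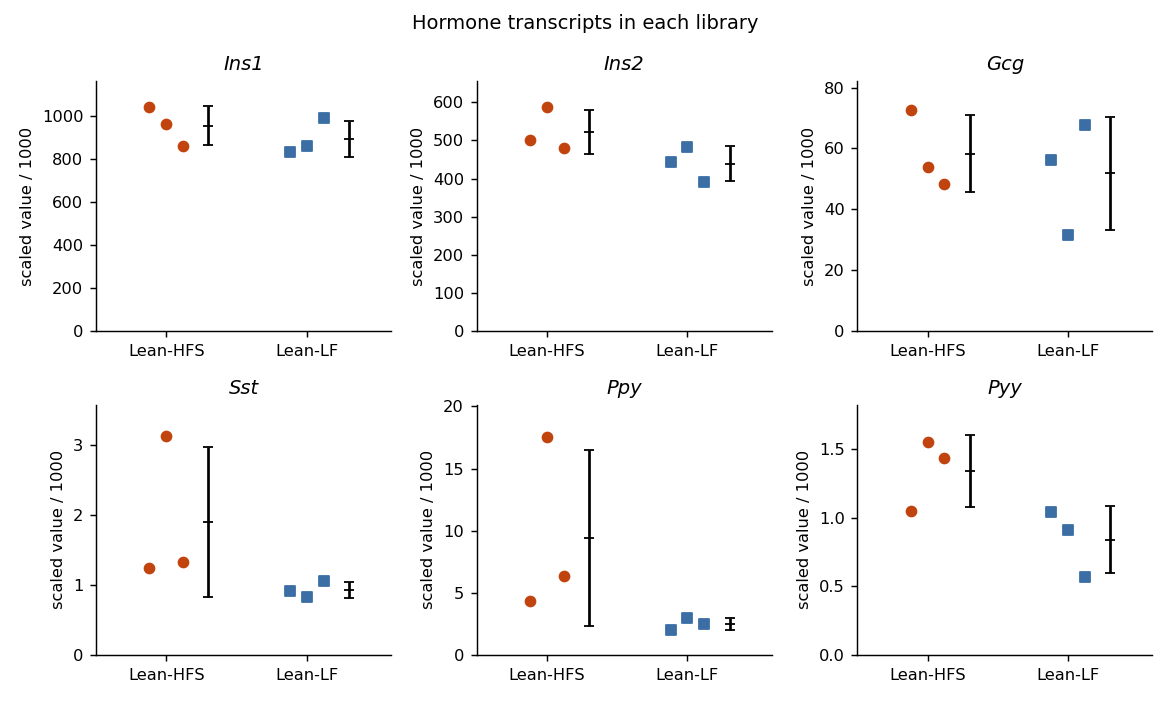
Scaled values, divided by 1000 on the axis, of 6 hormone genes in the 3 Lean-HFS libraries (circles, left) and the 3 Lean-LF libraries (squares, right), with the mean and SD of each group as a black bar. Sst, Ppy and Pyy have every Lean-HFS library above every Lean-LF library, Lean-HFS 2 being highest, and Ins1, Ins2 and Gcg overlap.

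The promoters of Sst and Ppy are shown because these hormones of different cells were high in the same library, Lean-HFS 2. Their RefSeq windows (GRCr8) are chr11:90461296-90461595 for Sst and chr10:87556187-87556486, on the minus strand, for Ppy. Capitals mark the cAMP response element TGACGTCA in Sst and a TATA box, TATAAA, in Ppy.
Sst: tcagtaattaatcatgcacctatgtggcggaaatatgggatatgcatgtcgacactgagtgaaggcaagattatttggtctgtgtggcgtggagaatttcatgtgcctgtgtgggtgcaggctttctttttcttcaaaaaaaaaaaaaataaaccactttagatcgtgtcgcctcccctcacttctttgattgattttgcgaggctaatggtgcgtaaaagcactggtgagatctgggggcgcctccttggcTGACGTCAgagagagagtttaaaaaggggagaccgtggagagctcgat
Ppy: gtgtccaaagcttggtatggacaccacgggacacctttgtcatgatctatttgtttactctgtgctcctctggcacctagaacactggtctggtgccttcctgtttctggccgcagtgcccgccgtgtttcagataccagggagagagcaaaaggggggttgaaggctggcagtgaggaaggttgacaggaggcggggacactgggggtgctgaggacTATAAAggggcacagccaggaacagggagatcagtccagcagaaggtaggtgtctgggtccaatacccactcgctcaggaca
The element of Sst begins 2 bases after the start annotated in this build, and the TATA box of Ppy 32 bases before it. Searched on both strands, TGACGTCA was found in 525 promoters (1.91%) and TATAAA in 3916 (14.3%) of 27457.

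The list of delta and PP cell genes holds Sst, Ppy and Pyy themselves. With them 5 of its 9 tested genes were above 0 with a median of 0.19, which was 0.04 with the length trend removed. Of the 6 other genes 2 were above 0, with a median of -0.06. Hhex, a transcription factor of delta cells, stood at 17.5, 5.57 and 15.5 in Lean-HFS and at 5.86, 9.13 and 9.31 in Lean-LF. Lean-HFS 2, the library highest in Sst, was lowest in Hhex. Sstr3, a somatostatin receptor in the same list, had a log2 fold change of -0.58 ± 0.25. Among the 15 alpha cell genes 9 were above 0 with a median of 0.07 (-0.18 without Lean-HFS 1), and the factors Irx2 and Irx1 had log2 fold changes of 0.01 and 0.27. Prohormone processing had a median of 0.06, with the convertases Pcsk1 and Pcsk2 at -0.01 and -0.12 and carboxypeptidase E, Cpe, at -0.14.

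The lists of beta cell identity and of secretion had medians a little below 0, of a size that depended on single libraries and without a gene past the threshold. Of the 25 tested identity and glucose sensing genes 5 were above 0, with a median log2 fold change of -0.16, while the median of all genes was 0.00. Pdx1 and Nkx6-1, transcription factors of mature beta cells, had log2 fold changes of -0.21 ± 0.24 and -0.16 ± 0.37. Slc2a2, the glucose transporter GLUT2, stood at 8468, 8956 and 6063 in Lean-HFS, against 11751, 9449 and 7961 in Lean-LF, so the groups overlapped. Ffar1, a fatty acid receptor that promotes secretion, stood at 254, 152 and 123 in Lean-HFS and at 313, 282 and 194 in Lean-LF (-0.62 ± 0.27). Trpm5 and Mlxipl were the 2 of 25 with every HFS library below every LF library (3.95% over all genes), and no member had the reverse order. The list's median was -0.28 without Lean-LF 3, -0.03 without Lean-LF 1 or without Lean-HFS 3, and -0.18 with the length trend removed. In offspring of GDM dams the same list had a median of 0.31, with 22 above 0, and the difference between the 2 list medians was not tested. Its mean log2 level was 8.73, 8.48 and 8.40 in GDM-HFS and 8.34, 7.95 and 8.60 in GDM-LF, with overlap. GDM-LF 2, the lowest, also had the highest mean log2 level of acinar markers of all 12 libraries, 12.16. Insulin made up 22.0% of its reads outside rRNA.

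For insulin secretion and exocytosis 7 of 25 were above 0 with a median of -0.12, which was -0.02 with 10 above 0 without Lean-HFS 3, and 0 passed. Vamp2, Stx1a and Snap25, the core proteins of granule fusion, had log2 fold changes of 0.05, -0.30 and -0.08, and the calcium sensor Syt7 had -0.12. The groups were separate for Unc13a, a priming factor, and for Cacna1c and Cacna1a, the pores of L-type and P/Q-type calcium channels. Cacna1c stood at 220, 203 and 123 in Lean-HFS and at 233, 230 and 257 in Lean-LF. Unc13a stood at 365, 355 and 331 in Lean-HFS and at 468, 582 and 387 in Lean-LF. All 3 lay lower in Lean-HFS (3 of 25, or 12%). The share was 3.95% over all genes, 3.59% of transcripts of 1000 to 4000 bases and 7.30% of those over 4000 bases. The list's median length was 2163 bases.

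Genes that are usually silent in mature beta cells had a median of 0.07 (-0.06 without Lean-HFS 3) with 13 of 19 above 0. Ldha, lactate dehydrogenase, and Slc16a1, a lactate transporter, had log2 fold changes of 0.24 ± 0.33 and 0.07 ± 0.50, and the hexokinases Hk1 and Hk2 had -0.11 and -0.16. All 10 tested genes of dedifferentiation and progenitor states were above 0, from 0.19 to 1.69, with a median of 0.47 that was 0.19 without Lean-HFS 3. Gast, gastrin, which fetal islets express, was the 1 member without overlap (10% of the list, against 3.68% over all genes). It stood at 12.5, 3.18 and 5.92 in Lean-HFS and 1.06, 0.869 and 1.99 in Lean-LF. Aldh1a3, Sox9 and Cck had 0.22, 0.25 and 0.47 with overlapping groups. The duct list, which shares Sox9 as a known gene of ducts, had its highest level in the same library, Lean-HFS 3, and its part in this list was not tested.

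Ribosomal protein genes leaned the same way relative to the median of all genes. All 79 tested genes of the cytosolic ribosome had a log2 fold change above 0 (40 in the deposited values before rescaling), with a median of 0.37. Of these, 14 (17.7%, against 3.68% over all genes and 7.05% of transcripts under 1000 bases) had every HFS library above every LF library. None passed the test. Rpl23a stood at 1528, 1722 and 1696 in Lean-HFS, against 1147, 997 and 1248 in Lean-LF, a log2 fold change of 0.55 ± 0.19. Rplp0, the stalk protein, had 0.32 ± 0.29, Rpl3 0.19 ± 0.19 and Rps14 0.36 ± 0.40. The summed level of the list was 139748, 148018 and 149517 in Lean-HFS, against 97160, 94949 and 157623 in Lean-LF. Lean-LF 3 thus lay above all the HFS libraries, as it did in the length measure. The members are short, with a median length of 557 bases, and the list's median was 0.17 with the length trend removed and 0.62 without Lean-LF 3. Whether length or the diet sets these values was not tested. Processed copies of ribosomal protein genes make single members uncertain.

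The subunits of oxidative phosphorylation, with a median length of 727 bases, behaved in the same way. Of 54 tested 51 were above 0 (3 in the deposited values before rescaling), with a median of 0.22, and 7 (13.0%, against 3.68% over all genes and 7.05% of transcripts under 1000 bases) had every HFS library above every LF library. Atp5j, coupling factor 6 of the ATP synthase, stood at 217, 194 and 209 in Lean-HFS and at 108, 153 and 134 in Lean-LF (log2 fold change 0.66 ± 0.22). Sdhb of complex II stood at 328, 355 and 333 in Lean-HFS and at 296, 266 and 319 in Lean-LF. Cyc1, Cox5a and Cox6a1 of complexes III and IV and Ndufa10 and Ndufs8 of complex I were the other 5, with log2 fold changes of 0.15 to 0.31. Ndufa1 and Cox4i1 overlapped, Lean-LF 3 being their highest library. The median of the list was 0.05 with the length trend removed and 0.39 without Lean-LF 3.

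Lipid and sugar metabolism showed small values in both directions. Of the 33 tested genes of fatty acid oxidation and PPAR targets 18 were above 0 with a median of 0.03. Cpt1a, the carnitine transferase that admits fatty acids to mitochondria, had a log2 fold change of -0.06 ± 0.27, and Pdk4, a kinase that restrains glucose oxidation, 0.37 ± 0.48. Eci1, an isomerase of unsaturated fatty acid oxidation, was the 1 member without overlap (3.03% of the list, against 3.68% over all genes). It stood at 135, 96.7 and 176 in Lean-HFS and 74.0, 88.7 and 78.3 in Lean-LF. Fatty acid and triglyceride synthesis had a median of -0.07 with 9 of 24 above 0, and the median was -0.24 without Lean-LF 3 and 0.05 without Lean-LF 1. Fasn, Acaca and Srebf1, which make fatty acids or turn on the genes that do, had -0.43 ± 0.28, -0.21 ± 0.20 and -0.23 ± 0.27. Scd, the stearoyl desaturase, stood at 165, 47.0 and 45.5 in Lean-HFS and at 151, 67.0 and 62.0 in Lean-LF, library 1 being highest in both groups. Cholesterol synthesis had a median of 0.09, with Sqle and Hmgcs1 at 0.04 and 0.16. Only Pmvk of its 28 tested genes was separated, higher in Lean-HFS (3.57%, against 3.68% over all genes).

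Mlxipl, the carbohydrate-response factor ChREBP, stood at 100, 72.8 and 58.3 in Lean-HFS, against 110, 188 and 122 in Lean-LF, a log2 fold change of -0.85 ± 0.43. Every HFS library was lower. Of its known targets Txnip stood at 264, 425 and 1158 in Lean-HFS and at 398, 470 and 355 in Lean-LF, while Pklr and Arrdc4 had log2 fold changes of -0.26 and -0.30. The 12 tested genes of the sugar response had a median of 0.09 with 7 above 0, and the median was -0.04 without Lean-LF 3. Glycolysis had a median of -0.02 (-0.17 without Lean-LF 3) with 16 of 33 above 0. Pfkfb2, which tunes phosphofructokinase, was its only separated member (3.03%, against 3.95% over all genes). It was lower in Lean-HFS at 648, 669 and 508 than in Lean-LF at 845, 820 and 730.

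The stress lists had medians between -0.03 and 0.16. The 32 genes of the unfolded protein response had a median of -0.03 with 13 above 0 and no separated member. Hspa5, the chaperone BiP, had a log2 fold change of -0.14 ± 0.36, Ddit3, the factor CHOP, -0.01 ± 0.31, Atf4 0.05 ± 0.23 and Xbp1 0.13 ± 0.16. For Xbp1 the 95% interval ran from -0.21 to 0.47. Of the 22 hypoxia genes 10 were above 0, the median being 0.00, and Vegfa and Slc2a1 had 0.01 and -0.14. In 3 of the 22 (13.6%) every HFS library was below every LF library. The share was 3.95% over all genes, 3.59% of transcripts of 1000 to 4000 bases and 7.30% of those over 4000 bases. The list's median length was 2082 bases. The 3 were the histone demethylase Kdm3a (-0.32 ± 0.21), the collagen prolyl hydroxylase subunit P4ha2 (-0.38 ± 0.20) and the lysyl oxidase Loxl2 (-0.22 ± 0.25). Ankrd37, an ankyrin repeat protein, had 0.72 ± 0.30 with overlap. Of the 29 antioxidant genes 18 were above 0 with a median of 0.06. Gsta4, a glutathione transferase for lipid aldehydes, stood at 31.4, 36.2 and 34.6 in Lean-HFS and at 2.93, 17.8 and 18.8 in Lean-LF. Gclc and Gclm, the subunits that make the glutathione precursor, were lower in every HFS library with log2 fold changes of -0.22 and -0.30. Of the list 1 gene was thus higher (3.45%) and 2 were lower (6.90%), against 3.68% and 3.95% over all genes. Heat shock proteins had a median of 0.16 with 14 of 20 above 0, Hspa8 standing at -0.07 and Hsp90aa1 at -0.02. Hspa2 and Dnajb1 were higher in every HFS library (0.65 ± 0.40 and 0.19 ± 0.31), 10% of the list against 3.68% over all genes.

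The cytokine and interferon lists had medians near 0 in these offspring, with SE of 0.43 to 1.02 for the cytokine list genes named below. Of the 29 cytokine and NF-kB target genes 17 were above 0 with a median of 0.03 and no separated member. Between GDM-HFS and GDM-LF the same list had a median of -1.54 with 1 above 0, and the difference between dams was not tested for the list. Its mean log2 level was 5.17, 5.76 and 5.47 in GDM-HFS and 6.70, 8.16 and 6.11 in GDM-LF, GDM-LF 2 being the highest. Ccl2, a monocyte chemoattractant, stood at 77.1, 258 and 225 in Lean-HFS and at 53.8, 99.6 and 157 in Lean-LF, a log2 fold change of 0.80 ± 0.85. Cxcl1, Il1b and Nfkbia had 0.48, 1.23 and 0.31 with SE of 0.93, 1.02 and 0.43. The interferon list had a median of 0.06 with 23 of 32 above 0. Ifi44 and B2m were higher and Stat2 lower in every HFS library (6.25% and 3.1% of the list, against 3.68% and 3.95% over all genes). Immediate early genes, which dissociation of tissue can induce, had a median of 0.18 with 24 of 32 above 0, and Fos, Jun, Egr1 and Ier2 had 0.26, 0.02, 0.09 and 0.04.

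The cell cycle list had a median of 0.25 with 28 of 37 above 0, and its values rest on few reads. Cdk6, a kinase of the G1 phase, stood at 8.51, 3.98 and 8.65 in Lean-HFS and at 2.40, 2.61 and 1.50 in Lean-LF. Ccna2, Ccnb1 and Plk1, which act from S phase to mitosis, were also higher in every HFS library, with log2 fold changes of 1.72 ± 0.84, 0.63 ± 0.43 and 0.59 ± 0.48. Aurkb, a mitotic kinase, and Cdkn2c, a cell cycle inhibitor, were lower in every HFS library, at -1.07 and -0.42. In all, 4 of 37 (10.8%) were higher in every HFS library and 2 (5.41%) lower, against 3.68% and 3.95% over all genes. Mki67, the proliferation marker, stood at 10.7, 11.5 and 4.10 in Lean-HFS and at 4.79, 6.52 and 3.49 in Lean-LF, with overlap. Ccnd1 and Ccnd2, the cyclins most used by beta cells, had -0.19 ± 0.21 and -0.37 ± 0.21. The clock genes had a median of -0.11. Dbp and Nr1d2, which are driven by the clock, were higher in every HFS library (0.72 ± 0.34 and 0.38 ± 0.21). They were 2 of 14 (14.3%, against 3.68% over all genes), while Per1, Per2 and Arntl had -0.20, -0.41 and -0.25. The sources used here do not give the hour of islet collection.

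**Figure D4:**
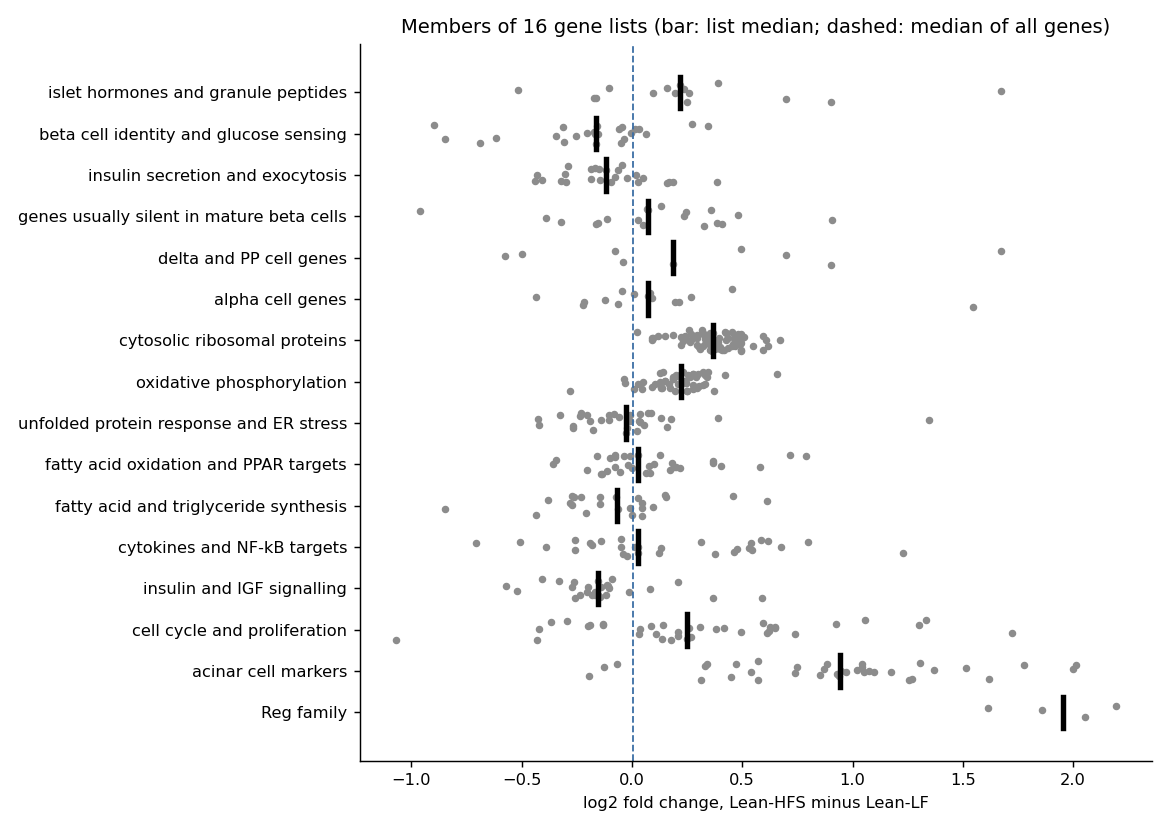
Log2 fold change, Lean-HFS minus Lean-LF, of each tested member of 16 gene lists (grey points, spread vertically so that they can be seen), with the list median as a black bar and the median of all genes as a dashed line at 0.00. All 79 ribosomal protein genes lie to the right of 0 (40 would in the deposited values before rescaling) with a median of 0.37, and the acinar markers (0.94) and Reg genes (1.96) lie farthest right.

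Markers of exocrine cells differed most in size and least evenly. The acinar cells of the exocrine pancreas make digestive enzymes, and islet preparations carry some of them. Of 36 tested acinar markers 33 were above 0 with a median of 0.94, and only Spink1, a trypsin inhibitor, was separated (2.78%, against 3.68%). The list's summed level was 68776, 50644 and 276414 in Lean-HFS, against 33109, 95064 and 49168 in Lean-LF, and no marker was at 0 in all 6 libraries. Prss1, a trypsinogen, stood at 9609, 6165 and 44271 in Lean-HFS and at 4539, 13610 and 7195 in Lean-LF. Lean-HFS 3 had the highest summed level, and without it the median of the list was 0.24. The Reg genes, secreted lectins of acinar cells and of stressed islets, had the largest median of the 40 lists, 1.96 over 4 tested genes. It was 1.07 without Lean-LF 1 or without Lean-HFS 3, and 2.91 without Lean-LF 2 or without Lean-HFS 2. Reg1a stood at 3010, 1103 and 11558 in Lean-HFS and at 241, 2532 and 649 in Lean-LF (log2 fold change 2.20 ± 1.15). Reg3a, Reg3b and Reg3g had 2.05, 1.86 and 1.61, and none of the 4 was separated between groups. Duct markers had a median of 0.42, which was -0.14 without Lean-HFS 3, and Krt19 stood at 70.8, 39.8 and 175 in Lean-HFS and at 58.6, 199 and 22.4 in Lean-LF. The part of this exocrine RNA in the values of other genes was not tested.

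Blood vessel, connective tissue and immune markers had medians that depended on single libraries. The 20 endothelial markers had a median of -0.10 with 8 above 0, which was 0.11 without Lean-HFS 1 and -0.42 without Lean-HFS 3. Esm1, an endothelial proteoglycan, stood at 28.2, 67.7 and 76.0 in Lean-HFS and at 79.6, 77.9 and 104 in Lean-LF. It was the 1 member without overlap (5% of the list, against 3.95% over all genes). Vwf, the clotting factor carrier, had a log2 fold change of -1.19 ± 0.55 with overlap. Stellate and fibroblast markers had a median of -0.01 with 11 of 25 above 0 (0.33 with 18 above 0 without Lean-LF 3), and the collagen Col1a1 stood at 293, 12.3 and 240 in Lean-HFS and at 67.9, 94.8 and 143 in Lean-LF, so that Lean-HFS 2 was the lowest and Lean-HFS 1 the highest of all 6. Macrophage markers had a median of 0.15 with 13 of 21 above 0. The median was -0.29 with 2 above 0 without Lean-HFS 3, -0.14 without Lean-LF 1 and 0.36 without Lean-LF 3, the summed level being 1774 to 3384 in Lean-HFS and 1705 to 2848 in Lean-LF. Of the 22 T, B and NK lymphocyte markers listed in the data, 7 could be tested and 3 were at 0 in all 6 libraries. The 7 had a median of 0.46 with 6 above 0, and the median lay between 0.14 and 0.72 when each library was left out, at 0.69 without Lean-LF 3. All 6 tested genes of MHC class II, which antigen-presenting cells express, were above 0 with a median of 0.10, but it was 0.86 without Lean-LF 3, -0.23 without Lean-LF 1 and -0.21 without Lean-HFS 3. Over all 40 lists the median turned sign for 23 when some 1 of the 6 libraries was left out.

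The same weaning diet contrast in offspring of GDM dams, which shares no library with this one, was set beside the 23 genes of low p shown here. The sign was the same for 9 of 23 (3 of 11 on the higher side and 6 of 12 on the lower side). In that contrast 1188 of all 12339 genes had an unadjusted limma p under 0.05, in either direction. Among the 23, Pcdhb6 was the 1 gene with the opposite sign and an unadjusted p under 0.05 there. It stood at 4.27, 3.66 and 5.19 in GDM-HFS, against 2.63, 0.843 and 0.874 in GDM-LF, a log2 fold change of 1.20 ± 0.46. Pcdhb2 had 1.06 ± 0.53 there. The libraries themselves also differed between the kinds of dam. Reads of rRNA made up 1.84 to 8.55% of gene reads in the GDM-HFS and GDM-LF libraries. In the Lean libraries they made up 11.3 to 39.0%, except for 1.84% in Lean-LF 3. The length measure was -0.07 to 0.74 in the GDM libraries and -0.73 to -0.08 in the Lean libraries. The part of the letter and of these measures in the differences between dams given here was not tested.

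The difference between the diet effects (that in offspring of lean dams less that in offspring of GDM dams) was tested in the same fit, and 0 of 12339 genes passed (0%), with 730 at an unadjusted p under 0.05 and a lowest adjusted p of 0.784. Pcdhb6, with a difference of -3.68 ± 0.65, had the lowest p of the negative side, followed by Slc45a1, a sugar transporter, at -1.88 ± 0.43 and Pcdhb2 at -3.06 ± 0.75. Slc45a1 stood between 22.9 and 25.5 in the 3 Lean-HFS libraries and between 38.6 and 43.1 in the 3 Lean-LF libraries, and at 28.5, 29.7 and 39.8 in GDM-HFS and 9.41, 12.6 and 23.0 in GDM-LF. The groups were separate in both kinds of dam and in opposite order. On the positive side Eif1, an initiation factor that helps to select the start codon, had a difference of 1.55 ± 0.35. It stood at 850, 1253 and 1384 in Lean-HFS and 624, 1144 and 569 in Lean-LF, and at 664, 541 and 542 in GDM-HFS and 1170, 1017 and 1143 in GDM-LF. Ube2a, a ubiquitin-conjugating enzyme, and Ptpn12, a tyrosine phosphatase, had log2 fold changes of 0.48 and 0.34 in offspring of lean dams and of -0.78 and -0.75 in offspring of GDM dams.

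**Figure D5:**
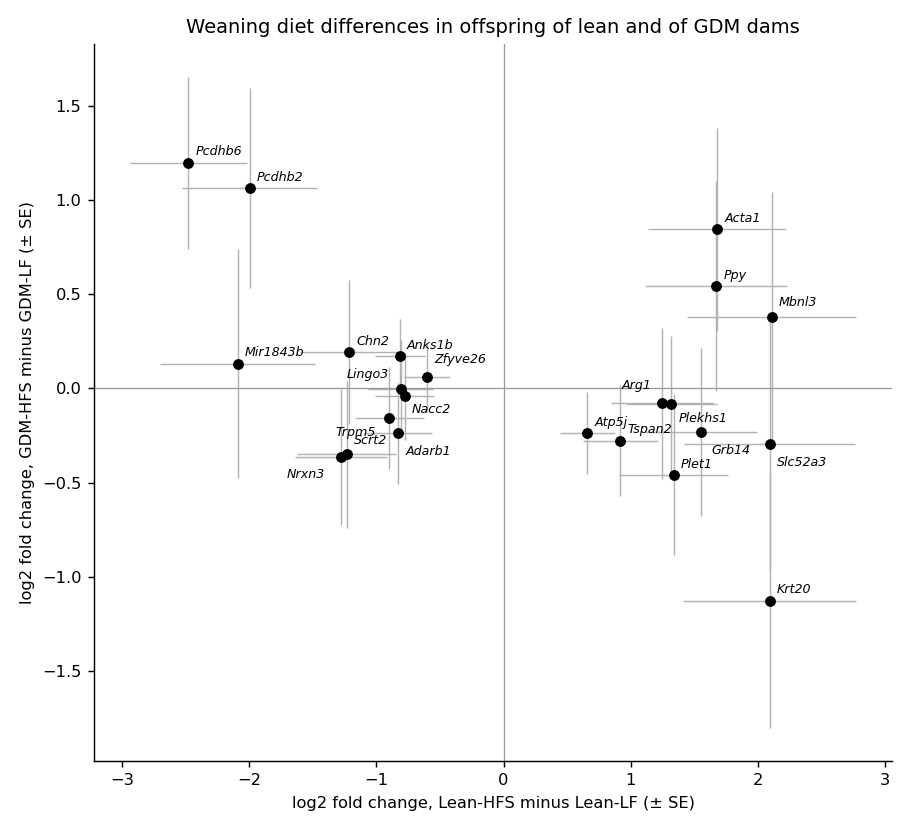
Log2 fold change between weaning diets when the dam was lean (x axis, Lean-HFS minus Lean-LF) and in offspring of GDM dams (y axis, GDM-HFS minus GDM-LF) for the 23 genes of low p shown here, with SE bars in both directions (3 libraries a group). Pcdhb6 lies at -2.48 and 1.20, Krt20 at 2.09 and -1.13, and most other genes lie close to the horizontal line at 0.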

How the data were processed

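Islet RNA of 12 rat offspring was profiled after rRNA removal with strand-specific kits, per the labels' protocols. Per the submitters' processing notes, STAR 2.5.1b aligned the reads, HOMER 4.9 counted them, and DESeq2 was used in a version not stated. Reads over exons were summed on both strands of build rn5 with 1 entry per gene, per the file headers, so antisense partners cannot be told apart. The values deposited by the authors are a depth-scaled signal and, although the header names FPKM, were not divided by gene length: 100% of the values of up to 1000 reads were whole reads (tolerance 0.1 read). Before rescaling, a value of 1 stood for 1.96 to 5.02 reads, and libraries held 11469290 to 27492858 gene reads. The design had assumed FPKM, and its log-scale test was kept. Levels are not comparable between genes of different length.

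Each library was divided by its median ratio to the gene-wise geometric means, using the 11337 genes (of 17407) that had reads in every library. Genes whose scaled values averaged 1 or more, 12339 in all, were fitted as log2(scaled value + 1) with limma 3.58.1 in R 4.3.3, with 1 mean per group over 12 libraries, a variance trend and Benjamini-Hochberg adjustment. This scale understates changes of low genes. The fit was tested on simulated data. The text names the 12 genes of lowest p in each direction (provisional symbols left out), the first 4 tested genes of each of 40 lists described, and 3 genes a direction for the difference between dams; some of these genes are not reported here, and members without overlap and other genes were added after their values were seen. Members and lists were chosen with earlier results of these data known. Alternatives were other pseudocounts, filters, scalings, weights, covariates, a length correction, edgeR 4.0.16 and DESeq2 1.42.0 on the recovered reads, a replicate block and leaving out each library. The header's command lists the Lean-LF read sets in another order than the columns, within the group, so the numbers 1 to 3 follow the column names. No 2 libraries of a group agreed within counting noise. Floors and read counts cover counting error only. The promoter and microRNA sequences are RefSeq's (GRCr8).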

Additional observations from a re-analysis of the deposited data

How the results depend on the processing

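The count of 0 genes past the threshold held in every alternative run except DESeq2 on recovered reads, which called 1 gene (Fam111a, adjusted p = 0.0298), and leaving out each replicate gave 0 to 0 calls. For the difference between dams the count was 0 in every alternative run, leaving out replicates included. How many genes stood at an unadjusted p under 0.05 depended on the setting: 269 in the fit reported, 155 without Lean-LF 1, 180 without Lean-HFS 3, 834 without Lean-LF 3, 445 without Lean-HFS 1, 1187 with library weights, 1234 with Rn45s (the rRNA precursor) as a covariate and 1467 with the values as deposited. The causes were not tested. None of the 23 genes of low p shown turned sign in 501 pairs of gene and alternative. The genes were chosen for low p in these libraries, and all but Mir1843b had separate groups. For separate groups, leaving out a library or changing the pseudocount could not turn the sign, so those pairs are no test of it. Correlations of same-numbered libraries were 0.20, -0.17 and 0.14. Lean-HFS 1 and Lean-HFS 3 correlated best with their same-numbered library, Lean-HFS 3 narrowly (0.12 with Lean-LF 2), and Lean-HFS 2 with Lean-LF 1 (0.12). Such small values from 3 libraries a group cannot settle whether the replicate numbers pair the libraries. The fit with the replicate block called 0 genes, with 246 at an unadjusted p under 0.05. List medians without single libraries were added after the data were seen. With 3 libraries a group the median gene's 95% interval spans 1.49-fold either way before adjustment for the number of genes, and a 5.58-fold difference on the log2(value + 1) scale (Pcdhb6) still had an adjusted p of 1.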

Other observations

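Some lists and genes fall outside the comparisons above. Vitamin A and retinoid handling had a median of -0.02 (0.09 without Lean-LF 3) with 5 of 12 tested genes above 0. Serotonin synthesis and the prolactin response had a median of -0.10. In that list Ddc, the decarboxylase of serotonin and dopamine synthesis, was the 1 gene with every HFS library above every LF library. This was 7.14% of the list, against 3.68% over all genes. Ddc stood at 192, 114 and 117 in Lean-HFS and 97.2, 80.5 and 102 in Lean-LF (log2 fold change 0.55 ± 0.22, limma adjusted p = 1). Tph1, which makes serotonin in islets, overlapped at 0.42 ± 0.48. Adipocyte markers had a median of 0.14 (0.26 without Lean-LF 3), erythrocyte markers -0.31 (0.29 without Lean-LF 3) and genes of lymph node and mesenteric fat 0.03.

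A gap of at least 16-fold between neighbouring libraries, a limit chosen after the values were seen, split the 6 libraries for 4 gene entries. Fam111a, known as a replication-linked protease, had 8, 10285 and 13 reads in Lean-HFS 1 to 3 and 10, 4 and 14 reads in Lean-LF 1 to 3. It had 20, 16168 and 3616 reads in GDM-HFS and 42, 17 and 20 in GDM-LF, so 3 of the 6 HFS libraries, from both kinds of dam, held 3616 reads or more and no LF library held more than 42. DESeq2 gave Fam111a a log2 fold change of 9.25, and limma 3.98 ± 2.41. Sardh, sarcosine dehydrogenase of mitochondria, stood at 125, 5.17 and 108 in Lean-HFS and at 134, 124 and 108 in Lean-LF, Lean-HFS 2 being the low library, and at 118, 110 and 80.2 in GDM-HFS and 15.4, 38.7 and 72.5 in GDM-LF. Rn45s, the rRNA precursor, was low in Lean-LF 3. The provisional entry LOC500035 stood at 45.7, 29.9 and 37.8 in Lean-HFS and at 24.8, 40.4 and 0.166 in Lean-LF, and at 0.898, 0 and 0 in GDM-HFS and 0 in each GDM-LF library.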
